A study of Mus musculus with 10 samples.

Results

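The 10 genes described here, Pik3ip1, Txnip, Btg1, Btg2, Tob1, Ccng2, Rbl2, Cited2, Sesn1 and Sesn3, are quiescence and antiproliferative genes linked to FOXO transcription factors. They were taken by symbol from the 24981 genes listed in each of the 2 expression tables of the study, and all 10 were found in both tables. RNA was sequenced from splenic NK cells (NKp46+ CD3-) and from liver ILC1 (CD3- NKp46+ DX5dim TRAIL+) sorted from BALB/C mice. Animals received vehicle (methyl cellulose) or 30 mg/kg of tofacitinib by gavage 2 times per day for 7 days, and their age is not given in the sources used here. Each cell type had 3 vehicle and 2 tofacitinib libraries. A library was a pool of animals, so p-values rest on the spread between pools, which the tests share across genes. By the authors' legend each NK replicate held 3 mice with vehicle and 2 with tofacitinib, so pool size differed with treatment. No genotype or second agent distinguished the groups, and the comparison asks how blocking Janus kinases in the animal for 1 week moved these genes in each cell type.

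FOXO1, FOXO3 and FOXO4 turn on genes that keep cells small, slowly metabolizing and out of the cell cycle. Cytokine and growth factor receptors activate PI3K and then AKT and SGK kinases, which phosphorylate FOXO proteins and drive them out of the nucleus, so FOXO targets are held down while growth signals arrive. NK cells and ILC1 depend on cytokines that use the common gamma chain, such as IL-15, whose receptors signal through the Janus kinases that tofacitinib inhibits. The products of the 10 genes act at different points, which set the order below: upstream in PI3K signaling (Pik3ip1), in glucose and redox control (Txnip), in mRNA decay (Btg1, Btg2, Tob1), in the cell cycle (Ccng2, Rbl2), in transcription (Cited2) and on mTORC1 (Sesn1, Sesn3).

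Promoter windows are shown for the genes whose sequence holds a FOXO core, and for the genes the results turn on. RefSeq windows of the build GRCm38.p6, which run from 250 bases before to 50 bases after each annotated start, were found for all 10 genes, with 11 windows because Sesn1 has 2. Each was searched on both strands for GTAAACA (a FOXO core), TTCNNNGAA (a STAT core), CACGTG (an E-box) and TGACGTCA (a CRE core). GTAAACA or its reverse complement was found in the windows of Txnip, Btg1 and Sesn1, against 3.65% of 32851 windows of all genes. TTCNNNGAA was in 0 of the 11 windows, against 8.3% of all. CACGTG was in the Cited2 window (7.15% of all) and TGACGTCA in the Btg2 window (1.79% of all), and no window held more than 1 match. Capitals mark the match, and a match is a description of letters and not a bound site. The first 3 sequences are whole windows: Txnip (chr3:96557707-96558006, plus strand), with its FOXO core beginning 121 bases before the start, Btg2 (chr1:134079106-134079405, minus strand), with its CRE core beginning 166 bases before the start, and Pik3ip1 (chr11:3330481-3330780, plus strand), the gene with the largest change, which holds none of the 4 motifs. The other 3 are stretches of 30 bases around the match in Btg1 (window chr10:96616751-96617050), Sesn1 (window chr10:41810324-41810623, where the match lies 22 bases past the start) and Cited2 (window chr10:17722978-17723277), all on the plus strand.
Txnip: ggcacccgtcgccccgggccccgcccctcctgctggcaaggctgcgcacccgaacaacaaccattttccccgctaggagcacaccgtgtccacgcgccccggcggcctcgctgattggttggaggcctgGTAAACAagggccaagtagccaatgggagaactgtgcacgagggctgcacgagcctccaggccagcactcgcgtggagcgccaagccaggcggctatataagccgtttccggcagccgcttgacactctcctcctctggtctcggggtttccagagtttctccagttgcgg
Btg2: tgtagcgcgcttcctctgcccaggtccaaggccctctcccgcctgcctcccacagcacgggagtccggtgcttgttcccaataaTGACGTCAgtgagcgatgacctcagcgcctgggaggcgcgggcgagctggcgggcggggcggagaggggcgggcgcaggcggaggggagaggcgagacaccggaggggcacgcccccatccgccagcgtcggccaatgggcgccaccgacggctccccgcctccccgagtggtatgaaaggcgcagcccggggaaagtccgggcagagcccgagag
Pik3ip1: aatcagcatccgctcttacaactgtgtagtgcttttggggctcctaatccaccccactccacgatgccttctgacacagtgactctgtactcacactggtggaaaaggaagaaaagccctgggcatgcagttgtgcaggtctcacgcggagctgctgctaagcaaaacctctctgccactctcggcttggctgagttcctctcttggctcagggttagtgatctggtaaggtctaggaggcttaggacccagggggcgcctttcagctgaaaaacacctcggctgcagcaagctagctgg
Btg1: gggggtttattTGTTTACaagcagattacg
Sesn1: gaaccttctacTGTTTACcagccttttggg
Cited2: cagccgctgcgCACGTGcagcgcggactcg

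Libraries had 29199973 to 79258362 alignments. NK libraries had 62930367, 56394142 and 29199973 with vehicle and 79258362 and 71369565 with tofacitinib. ILC1 libraries had 45647066, 61131645 and 61244805 with vehicle and 66914378 and 62010277 with tofacitinib. Depth thus split by treatment in both cell types, narrowly in ILC1, and its part in the results was not tested. Summed RPKM of 4 NK genes (Eomes, Itga2, Klrg1, Cx3cr1) was 357 to 453 in NK libraries and 9.93 to 23.6 in ILC1, and that of 5 ILC1 genes (Itga1, Tnfsf10, Cxcr6, Il7r, Cd200r1) was 256 to 566 in ILC1 and 32.4 to 72.3 in NK cells, as their labels say. In NK cells these marker sums also split by treatment. The ILC1 genes summed to 32.4 to 38.3 with vehicle and 59.8 and 72.3 with tofacitinib. Most of that shift was Il7r, a FOXO target counted below, with 22.2, 19.1 and 19.1 RPKM and then 43.5 and 53.1 RPKM. Tnfsf10 and Cxcr6 overlapped between the groups, while Itga1 and Cd200r1 rose from low levels, to at most 2.36 RPKM. The NK genes summed to 405 to 453 with vehicle and to 365 and 357 with tofacitinib. Genes of both cell types (Ncr1, Klrb1c, Tbx21, Il2rb, Klrk1) summed to 2090 to 2340 and to 1640 and 1680. The part of these shifts in the NK results below was not tested. ILC1 tofacitinib replicate 1 stood apart by 7 neutrophil genes, with a summed RPKM of 149 against 0.177 to 4.15 in the other ILC1 libraries, and by 6 erythroid genes, with 246 against 0.948 to 19.8. Among NK libraries, vehicle replicate 1 had 203 for the erythroid genes against 32.2 to 69.8, and 9.92 for the neutrophil genes against 0.223 to 0.632, with Elane at 0 in every NK library. B cell genes summed to at least 61.8 in every NK library, of both groups. In ILC1 the B cell sums were lower but split by treatment, at 5.94, 9.88 and 10.4 with vehicle and at least 13.2 with tofacitinib. T cell genes summed to 130 to 259 in ILC1, nearly all of it Cd3g, while Cd3e lay at 2.14 to 4.82. The authors' sample sheets place ILC1 vehicle replicate 2 and tofacitinib replicate 1 in 1 sequencing run, vehicle replicate 3 and tofacitinib replicate 2 in another, and vehicle replicate 1 alone in its own run.

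In splenic NK cells, tofacitinib raised 6 of the 10 genes and lowered none by the test across all genes (limma on log2(RPKM + 0.1), Benjamini-Hochberg adjusted p under 0.05). Of all 9472 genes tested, 1.79% were called higher and 3.02% lower. Pik3ip1 and Txnip rose the most of the 10, and 99.8% and 99.7% of genes tested had a smaller change. Btg2, Tob1, Ccng2 and Cited2 rose by less, and Btg1, Rbl2, Sesn1 and Sesn3 were not called. Both tofacitinib libraries lay above all 3 vehicle libraries for the same 6 genes, a pattern that 20.2% of all genes showed, and both lay below for 1 gene, Btg1, a pattern of 23.9% of all genes. The median log2 change of the 10 genes was 0.41, beside -0.01 over all genes tested.

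**Figure D1:**
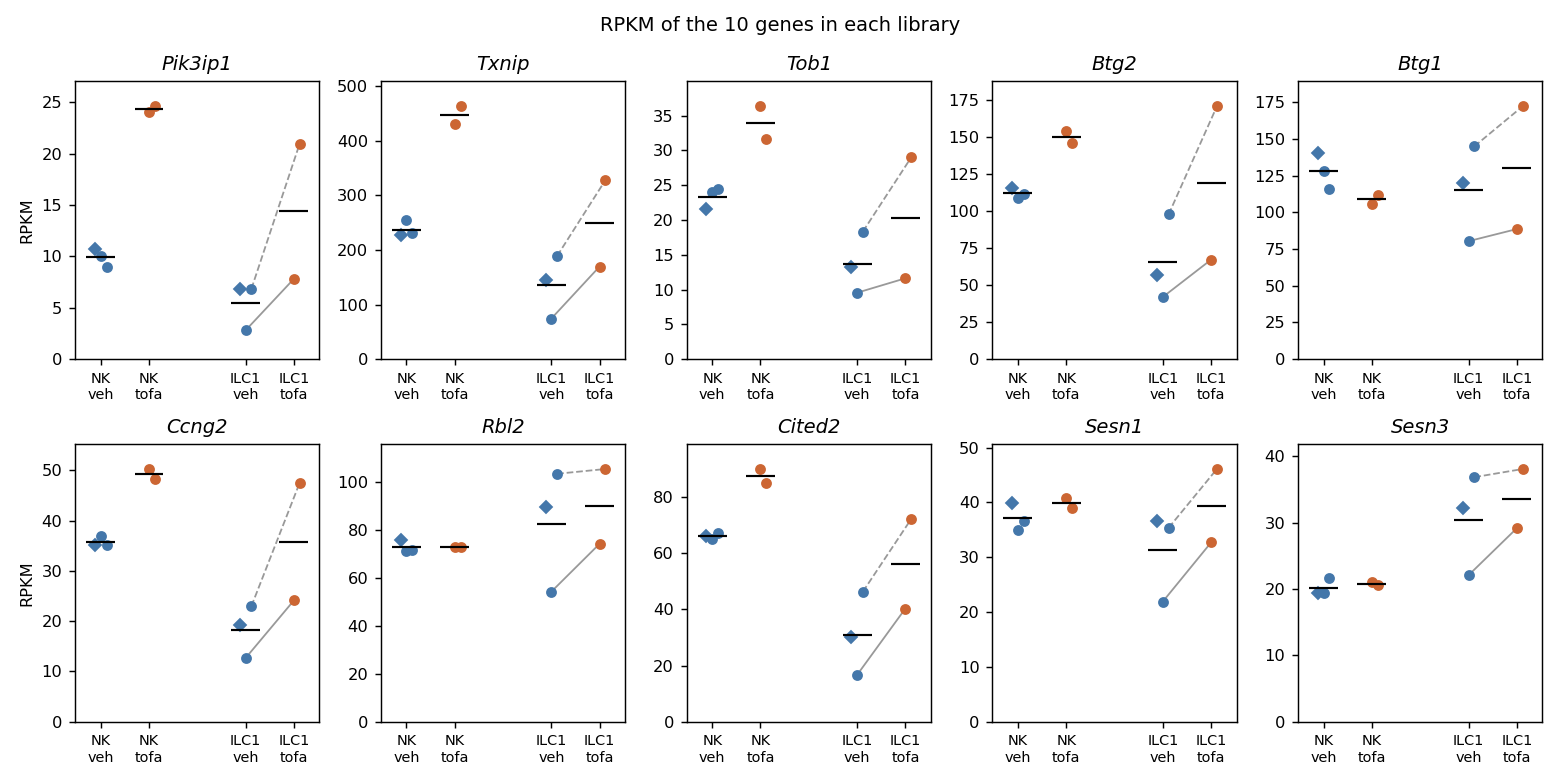
RPKM of the 10 genes (y axis, linear, from 0) in the 3 vehicle (blue) and 2 tofacitinib (orange) libraries of NK cells and ILC1, 1 point per library, with a bar at the group mean. Diamonds are vehicle replicate 1, and grey lines join ILC1 libraries of the same sequencing run (solid: vehicle 2 and tofacitinib 1, dashed: vehicle 3 and tofacitinib 2). NK points of a group lie close together, and every grey line goes up from vehicle to tofacitinib.

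Pik3ip1 (chr11:3330401-3342971, mm10, plus strand) encodes a membrane protein that binds the catalytic subunit of PI3K and inhibits it. NK cells had 10.7, 10.1 and 8.99 RPKM with vehicle and 24.1 and 24.6 RPKM with tofacitinib. The treated pools were thus well clear of the untreated ones, with little spread within either group. On the log2(RPKM + 0.1) scale Pik3ip1 rose by 1.29 (SE 0.09, adjusted p = 0.000723), a 2.44-fold increase. It was the lowest of the 10 genes in vehicle NK cells, and 41.3% of genes tested had a lower vehicle level.

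Txnip (chr3:96557957-96561883, plus strand) encodes an arrestin-fold protein that binds thioredoxin and lowers glucose uptake. It was the highest of the 10 genes, at 228, 254 and 230 RPKM with vehicle and 432 and 463 RPKM with tofacitinib. Groups did not overlap. The rise was 0.92 on the log2 scale (SE 0.10, adjusted p = 0.00291), or 1.89-fold, in a gene that already exceeded 98.0% of genes tested in vehicle cells.

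BTG and TOB proteins recruit the CCR4-NOT deadenylase to mRNA and slow proliferation, and Btg1 with Btg2 is known to maintain the quiescence of T cells. Btg2 (chr1:134075170-134079120, minus strand) had 115, 109 and 112 RPKM in vehicle NK cells and 154 and 146 RPKM with tofacitinib. Its groups did not overlap, and it rose by 0.42 (log2, SE 0.08, adjusted p = 0.0252). Tob1 (chr11:94211454-94215495, plus strand) had 21.6, 24.0 and 24.4 RPKM with vehicle and 36.4 and 31.6 RPKM with tofacitinib, again without overlap, and rose by 0.54 (SE 0.09, adjusted p = 0.0177). Btg1 (chr10:96617006-96622809, plus strand) did not follow its relatives. It had 141, 128 and 116 RPKM with vehicle and 106 and 112 RPKM with tofacitinib, so both treated pools were just under the lowest vehicle pool. The log2 change of Btg1 was -0.23 (95% interval -0.46 to -0.01, adjusted p = 0.199), which was not called.

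Ccng2 and Rbl2 act in the cell cycle. Ccng2 (chr5:93267257-93276231, plus strand) encodes cyclin G2, an atypical cyclin that restrains cell cycle entry. It had 35.2, 37.0 and 35.2 RPKM with vehicle and 50.3 and 48.3 RPKM with tofacitinib, a gap several times the distance between pools of a group. The rise was 0.46 (log2, SE 0.07, adjusted p = 0.0133). Rbl2 (chr8:91070057-91123844, plus strand) encodes p130, the pocket protein that holds E2F targets silent in resting cells as part of the DREAM complex. Its level hardly moved, with 75.8, 71.4 and 71.8 RPKM with vehicle and 72.9 RPKM in both tofacitinib libraries, which lay inside the vehicle range. The interval of its log2 change ran from -0.17 to 0.17 (adjusted p = 0.994).

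Cited2 (chr10:17723218-17725674, plus strand) encodes a nuclear protein that binds the coactivators CBP and p300 and competes there with HIF-1alpha, and it is needed for the quiescence of blood stem cells. NK cells had 66.0, 65.1 and 67.1 RPKM with vehicle and 90.1 and 85.1 RPKM with tofacitinib. The vehicle pools differed by less than for any other of the 10 genes (coefficient of variation 1.57%), and the treated pools were above them. Cited2 rose by 0.41 on the log2 scale (SE 0.08, adjusted p = 0.0236).

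The sestrins restrain mTORC1 through the GATOR complexes when amino acids are scarce or cells are stressed, and Sesn3 is a textbook FOXO target. Sesn1 (chr10:41809935-41908424, plus strand) had 40.0, 35.0 and 36.6 RPKM with vehicle and 40.7 and 39.0 RPKM with tofacitinib in NK cells. Sesn3 (chr9:14275067-14333101, plus strand) had 19.5, 19.4 and 21.6 RPKM with vehicle and 21.0 and 20.6 RPKM with tofacitinib. Both genes overlapped between the groups. Their log2 changes were 0.10 (interval -0.09 to 0.29, adjusted p = 0.498) and 0.05 (interval -0.14 to 0.23, adjusted p = 0.756).

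The 6 calls in NK cells rest on few libraries. Without tofacitinib replicate 1 only Pik3ip1 was still called (Txnip then had an adjusted p of 0.0503, and the other 4 genes of 0.236 to 0.365), and without tofacitinib replicate 2, or without vehicle replicate 1, only Pik3ip1 and Txnip were (the other 4 at 0.0598 to 0.200 and 0.0561 to 0.0833). With each gene's own variance, or with no filter on low values, 0 of the 10 were called, although the log2 changes stayed the same. The NK sample sheet gives each library a letter, whose meaning is not stated. With this sheet letter as a block, the calls of Cited2 (adjusted p = 0.0722) and Btg2 (0.0835) were lost. The correlations of deviations do not bear out that block.

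**Figure D2:**
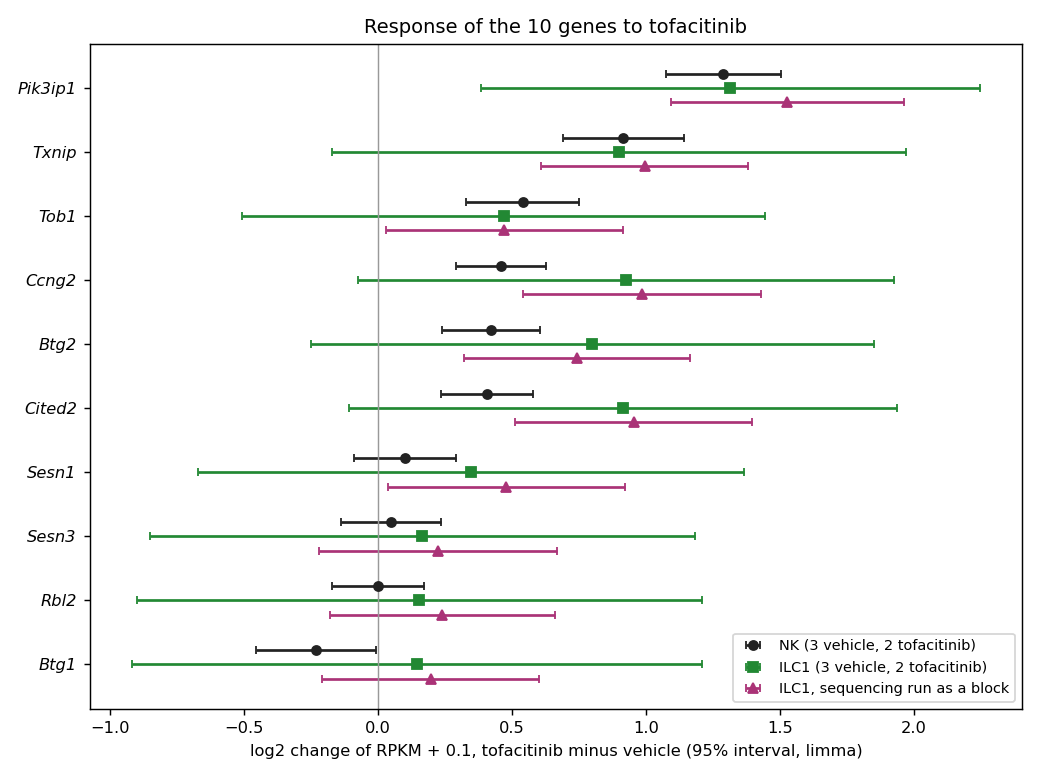
Log2 change of RPKM + 0.1 between tofacitinib and vehicle (x axis) for each of the 10 genes, with 95% intervals from limma, in NK cells (circles), in ILC1 (squares) and in ILC1 with the sequencing run as a block (triangles). NK changes run from -0.23 for Btg1 to 1.29 for Pik3ip1, and ILC1 intervals are several times wider unless the run is taken into account.

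In liver ILC1 the 10 genes all had a higher mean with tofacitinib, with log2 changes from 0.14 (Btg1) to 1.32 (Pik3ip1) and a median of 0.63, beside 0.01 over the 9366 genes tested. None was called, and 1 of the 10 (Pik3ip1) had an unadjusted p under 0.05. Among all genes tested, 0.192% were called higher and 0.278% lower. The ILC1 libraries varied more than the NK libraries, with a median SE of the log2 change of 0.486 against 0.102. The variance of the ILC1 fit came wholly from the trend over all genes, so its p-values do not hold a gene's own spread. Both tofacitinib libraries exceeded all vehicle libraries for Pik3ip1 and Ccng2 (2.07% of all genes), and both were below for none of the 10 (3.43% of all genes).

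For every one of the 10 genes, vehicle replicate 2 was the lowest of the vehicle libraries and tofacitinib replicate 2 the highest of all 5. Much of this ordering was common to all genes. Vehicle replicate 3 exceeded vehicle replicate 2 by a median of 0.84 (log2) over all genes tested and 0.93 over the 10 genes. Tofacitinib replicate 2 exceeded tofacitinib replicate 1 by a median of 0.56 over all genes and 0.95 over the 10. The low libraries, vehicle replicate 2 and tofacitinib replicate 1, came from the same sequencing run, so the comparison was also made within runs. Leaving out 1 library moved the ILC1 changes widely, from 0.61 to 2.02 for Pik3ip1, 0.42 to 1.37 for Txnip, 0.13 to 1.47 for Btg2, 0.44 to 1.41 for Ccng2, 0.50 to 1.33 for Cited2 and 0.10 to 0.59 for Sesn1. Btg1, Rbl2, Sesn3 and Tob1 turned negative without tofacitinib replicate 2, and the first 3 of these also without vehicle replicate 2.

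Within both shared runs, all 10 genes were higher with tofacitinib than with vehicle, as were 38.8% of all genes tested. The median change over all genes was 0.22 in the run of vehicle 2 and tofacitinib 1 and -0.03 in the run of vehicle 3 and tofacitinib 2. Relative to these medians 9 of the 10 genes stayed higher in both runs, and Btg1 did not, since its change of 0.14 in the first run was below the median there. From vehicle to tofacitinib, the neutrophil genes summed to 4.15 and 149 RPKM in the first run and to 0.177 and 0.728 RPKM in the second, and the erythroid genes to 19.8 and 246 RPKM and to 0.948 and 9.55 RPKM. The erythroid and B cell sums were thus higher with tofacitinib in both runs. In the second run the neutrophil sums lay near 0, with S100a9 going from 0 to 0.489 RPKM and S100a8 from 0.105 to 0 RPKM. The part of these markers in the changes was not tested.

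Pik3ip1, the PI3K inhibitor, showed the largest change of the 10 in ILC1 as it had in NK cells. It had 6.86, 2.79 and 6.82 RPKM with vehicle and 7.80 and 21.0 RPKM with tofacitinib, and went within the runs from 2.79 to 7.80 and from 6.82 to 21.0. These log2 changes, 1.45 and 1.61, exceeded those of 99.7% of genes tested in both runs. Txnip had 145, 74.2 and 189 RPKM with vehicle and 170 and 328 RPKM with tofacitinib. The groups of Txnip overlapped, while its changes within the runs were 1.19 and 0.80.

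Of the mRNA decay genes, Btg2 had 56.7, 41.9 and 97.7 RPKM with vehicle and 67.1 and 171 RPKM with tofacitinib in ILC1. Tob1 had 13.3, 9.54 and 18.3 RPKM with vehicle and 11.6 and 29.0 RPKM with tofacitinib. Btg1 had 120, 80.4 and 145 RPKM with vehicle and 88.6 and 172 RPKM with tofacitinib. All 3 overlapped between the groups. Within the runs (vehicle 2 to tofacitinib 1, then vehicle 3 to tofacitinib 2) the changes were 0.68 and 0.80 for Btg2, 0.28 and 0.66 for Tob1, and 0.14 and 0.25 for Btg1, so that Btg2 moved the most and Btg1 the least in both.

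The cyclin gene Ccng2 had 19.3, 12.7 and 23.0 RPKM with vehicle and 24.1 and 47.5 RPKM with tofacitinib, with no overlap and changes of 0.93 and 1.05 within the runs. Rbl2 had 89.8, 54.3 and 104 RPKM with vehicle and 74.4 and 106 RPKM with tofacitinib. The tofacitinib range of Rbl2 thus lay almost wholly inside the vehicle range, and its changes within the runs were 0.45 and 0.03. The coactivator-binding gene Cited2 had 30.2, 16.7 and 46.3 RPKM with vehicle and 40.3 and 72.2 RPKM with tofacitinib, which overlapped, with changes of 1.27 and 0.64 within the runs.

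The sestrins were again among the genes that moved least. Sesn1 had 36.6, 21.9 and 35.4 RPKM with vehicle and 32.7 and 46.1 RPKM with tofacitinib, with changes of 0.58 and 0.38 within the runs. These exceeded the changes of 86.6% and 92.7% of genes tested. Sesn3 had 32.2, 22.1 and 36.8 RPKM with vehicle and 29.2 and 38.1 RPKM with tofacitinib, with changes of 0.40 and 0.05. Both overlapped between the groups, and the Sesn3 changes exceeded those of only 71.0% and 62.8% of genes tested.

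**Figure D3:**
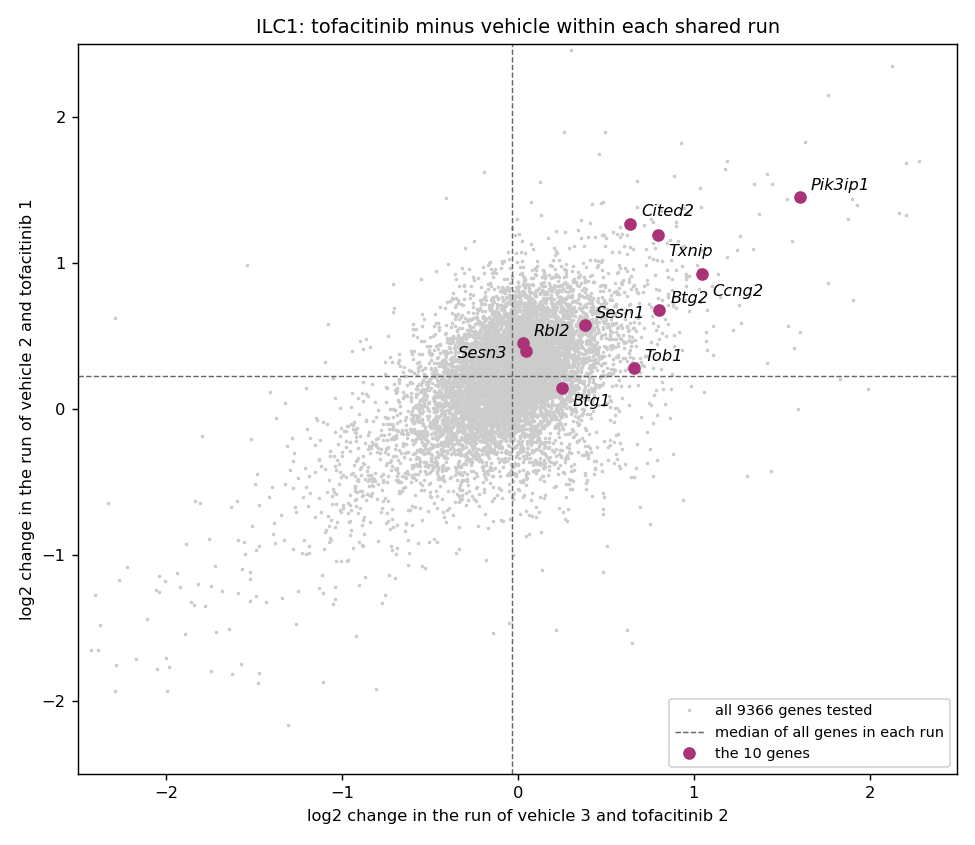
Log2 change between tofacitinib and vehicle in ILC1 within the run of vehicle 3 and tofacitinib 2 (x axis) and within the run of vehicle 2 and tofacitinib 1 (y axis), for all 9366 genes tested (grey) and the 10 genes (purple). Dashed lines are the medians over all genes, -0.03 and 0.22, and 19 genes lie outside the axes. Pik3ip1, Ccng2, Txnip, Cited2 and Btg2 lie far to the upper right, and Rbl2, Sesn3 and Btg1 lie near the medians.

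With the sequencing run as a block, 5 of the 10 genes were called higher in ILC1 (1.99% of all genes tested). Their log2 changes were 1.53 for Pik3ip1 (SE 0.22, adjusted p = 1.45e-09), 0.99 for Txnip (SE 0.20, adjusted p = 4.99e-05), 0.98 for Ccng2 (SE 0.23, adjusted p = 0.000935), 0.95 for Cited2 (SE 0.23, adjusted p = 0.00139) and 0.74 for Btg2 (SE 0.22, adjusted p = 0.0187). Tob1 (0.47, adjusted p = 0.334) and Sesn1 (0.48, adjusted p = 0.324) were not called, nor were Btg1, Rbl2 and Sesn3. All 5 called genes were also among the 6 called in NK cells. In this fit vehicle replicate 1 has a run of its own and drops out, 1 residual degree of freedom is left, and the variance comes from the trend over all genes, so the p-values rest on that trend.

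Whether ILC1 and NK cells responded differently was tested in a joint fit. Of the 10 genes 0 were called, at 0.145% of the 8981 genes tested in both cell types (13 genes), and 0 of the 10 had an unadjusted p under 0.05. The ILC1 change minus the NK change ran from -0.07 for Tob1 to 0.51 for Cited2 on the log2 scale, with SE of 0.46 to 0.51. For Txnip the difference was -0.02 (95% interval -1.02 to 0.99) and for Pik3ip1 it was 0.03 (-0.88 to 0.93). Cited2 (0.51, interval -0.46 to 1.48), Ccng2 (0.47, -0.48 to 1.41), Btg1 (0.38, -0.61 to 1.37) and Btg2 (0.38, -0.61 to 1.36) had the largest differences, and all 4 intervals included 0. With run and sheet letter as a block the SE were about 0.25 and again 0 of the 10 were called. The difference was then 0.11 for Txnip (SE 0.253), 0.18 for Pik3ip1 (SE 0.249), 0.54 for Ccng2 (SE 0.245, adjusted p = 0.916) and 0.55 for Cited2 (SE 0.246, adjusted p = 0.8625).

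Levels were set side by side across cell types without a test, because each cell type has a table of its own, normalized on its own. NK cells came from spleen and ILC1 from liver, so cell type and organ cannot be told apart in levels or in differences of response. In these bulk libraries fewer expressing cells and less RNA per cell cannot be told apart. In vehicle NK cells the order by mean RPKM was Txnip, Btg1, Btg2, Rbl2, Cited2, Sesn1, Ccng2, Tob1, Sesn3 and Pik3ip1, and of these neighbours only Sesn1 and Ccng2 overlapped in range. In vehicle ILC1 the order was Txnip, Btg1, Rbl2, Btg2, Sesn1, Cited2, Sesn3, Ccng2, Tob1 and Pik3ip1. There the ranges of the first 4 overlapped with their neighbours, as did those of Sesn1, Cited2, Sesn3, Ccng2 and Tob1, while Btg2 stood clear of Sesn1 and Tob1 of Pik3ip1. Read within each library, Btg1 was above Rbl2, Rbl2 above Btg2, Sesn3 above Ccng2 and Ccng2 above Tob1 in all 3 vehicle ILC1 libraries, and the order of Txnip and Btg1, of Sesn1 and Cited2 and of Cited2 and Sesn3 differed between libraries.

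Vehicle ILC1 had lower RPKM than vehicle NK cells, without overlap, for 6 of the 10 genes, as it did for 30.5% of the 8981 genes tested in both. The ratio of mean RPKM was 0.47 for Cited2, 0.512 for Ccng2, 0.553 for Pik3ip1, 0.572 for Txnip, 0.585 for Btg2 and 0.588 for Tob1. All 6 were called higher with tofacitinib in NK cells, and 49.4% of the 158 genes called higher there and tested in both cell types had this lower level in vehicle ILC1. Sesn3 was the exception in the other direction, at 1.51 times the NK level, from 20.1 ± 1.25 RPKM (SD, n = 3) in NK cells to 30.4 ± 7.56 RPKM (SD, n = 3) in ILC1, without overlap (5.43% of all genes). Btg1 (0.897), Sesn1 (0.842) and Rbl2 (1.13) overlapped. Dividing each library by its median RPKM left the 6 genes lower in ILC1 (0.536 to 0.693) and Sesn3 higher (1.8), moved Btg1 to 1.06 and Sesn1 to 1.0, and cleared the overlap of Rbl2 (1.33). With tofacitinib the ratios were 0.556 for Txnip, 0.591 for Pik3ip1, 0.597 for Tob1, 0.642 for Cited2, 0.727 for Ccng2 and 0.793 for Btg2, and Btg2 then overlapped between the cell types.

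Genes that work with the 10 were read from lists, each described by counts and a median beside -0.01 (NK cells) and 0.01 (ILC1) over all genes. Of the FOXO factors themselves 3 were tested in NK cells. Foxo4 rose from 15.0 ± 0.84 to 20.1 ± 0.54 RPKM (SD, n = 3 and n = 2, log2 change 0.43, adjusted p = 0.0261), while Foxo1 (0.14, adjusted p = 0.386) and Foxo3 (0.16, adjusted p = 0.267) were not called. In the PI3K-AKT arm, 1 of 14 genes rose and 1 fell in NK cells, with a median of -0.04. The kinase gene Sgk1 rose from 29.9 to 42.8 RPKM (log2 change 0.51, adjusted p = 0.0142). Pik3cd, the PI3K catalytic subunit of leukocytes, fell by 0.35 (134 to 105 RPKM, adjusted p = 0.0492), a call close to the threshold that was lost under 8 of the alternatives tried. In ILC1 none of these genes was called without a block. With the run as a block Foxo4 was called higher there (0.79, adjusted p = 0.0146), as it was on libraries scaled to the same median (adjusted p = 0.0434) or quantile normalized (0.0398). In the PI3K-AKT arm that block called Sgk1 and Pik3r2 higher and Pik3r5 lower of 14, the last 2 named after their values were seen.

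Other textbook FOXO targets gave 5 higher and 0 lower of 14 tested in NK cells, with a median log2 change of 0.34. Il7r, the IL-7 receptor chain, rose from 20.1 to 48.3 RPKM (1.25, adjusted p = 0.00116). Bcl6, a transcriptional repressor, rose from 5.32 to 10.3 RPKM (0.95, adjusted p = 0.00387). The others were the proapoptotic Bcl2l11 (0.50, adjusted p = 0.0107), the insulin receptor substrate Irs2 (0.64, adjusted p = 0.0285) and the CDK inhibitor Cdkn1b (0.41, adjusted p = 0.0413). In ILC1, 1 of 12 was called, Bcl6, with 2.23, 1.57 and 1.72 RPKM with vehicle and 5.26 and 8.33 RPKM with tofacitinib (1.81, adjusted p = 0.022). Bcl6 passed the filter on low values there through its tofacitinib group only, which favours a rise. Its call was lost with no filter and with each gene's own variance. The ILC1 change of Il7r was 1.91 (adjusted p = 0.0557), and the median of this list was 0.61 there. Il7r was called in ILC1 with the run as a block (1.99, adjusted p = 5.65e-16), on scaled libraries (0.0221), with quantile normalization (0.0125), with limma without trend (0.0107) and without vehicle replicate 2 (0.0108). That block called 5 of the 12 higher, Il7r, Bcl6, Irs2, Cdkn1b and Klf2, the last named after its values were seen. Irs2 too was tested in ILC1 through its tofacitinib group only. The ILC1 call of Bcl6 was lost without any single library other than vehicle replicate 2 (adjusted p from 0.328 to 1.0).

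Among relatives of the 10 genes, 1 of 11 was called in NK cells. Cited4, a paralog of Cited2, rose from 8.12 ± 1.22 (SD, n = 3) to 19.8 ± 0.47 RPKM (SD, n = 2). Its log2 change was 1.29 (adjusted p = 0.00165), next to 0.41 for Cited2. In ILC1 Cited4 had 34.6 RPKM with vehicle and 53.9 RPKM with tofacitinib (0.67, adjusted p = 1.0), and with the run as a block it was called higher (0.92, SE 0.22, adjusted p = 0.0025). Arrdc4, a relative of Txnip, had a log2 change of 0.67 in NK cells (adjusted p = 0.103). Arrdc4 was tested there through its tofacitinib group only. Partners of the 10 genes were counted too. Of the CCR4-NOT subunits 0 of 12, of the GATOR and mTORC1 genes 0 of 14, and of the thioredoxin and MondoA genes 0 of 7 were called in NK cells, with medians of 0.09, 0.03 and -0.16. Of the DREAM complex genes 1 of 9 was called, the E2F partner Tfdp1, which fell by 0.51 (16.3 to 11.4 RPKM, adjusted p = 0.0168). In ILC1 the run block called Tfdp1 lower as well (-0.74, adjusted p = 0.0262) and no other gene of these 4 lists.

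Proliferation genes were read as a reference for quiescence. In NK cells 6 of 12 were expressed highly enough to be tested, and Mki67 fell from 2.34 to 0.959 RPKM (log2 change -1.18, adjusted p = 0.0289) while the median was -0.12. Mki67 passed the filter on low values there through its vehicle group only, which favours a fall. It was not called with no filter (adjusted p = 0.184). In ILC1 9 were tested, all 9 had a negative change with a median of -1.51, and 2 were called. Ccnb2 fell from 2.70 ± 0.14 RPKM (SD, n = 3) to 0.598 ± 0.22 RPKM (SD, n = 2, adjusted p = 0.0031) and Rrm2 from 8.67 to 2.48 RPKM (adjusted p = 0.0465). Ccnb2, 1 of the 9, passed the filter through its vehicle group only, which favours a fall. Ccnb2 was not called without vehicle replicate 1 (adjusted p = 0.119), without either tofacitinib library or on scaled libraries (0.0652). Rrm2 was not called without any library other than vehicle replicate 2 (0.611 without vehicle replicate 3). It was also lost with an offset of 1 (0.0636) and with the stricter filter (0.149). Neither was called with no filter, with each gene's own variance or with replicate numbers as a block. With the run as a block 6 of the 9 were called lower.

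Several of the 10 genes also answer other inputs, so genes of those inputs were counted in the same NK libraries. Of 6 glucocorticoid-responsive genes 4 rose, Tsc22d3 (58.0 to 126 RPKM, 1.14, adjusted p = 0.00512), Dusp1 (1.47), Per1 (0.57) and Klf9 (0.59), and none of the 6 was called in ILC1 without a block. For 1 of the 6, not called, both NK tofacitinib libraries lay below all vehicle libraries (23.9% of all genes). Of 8 immediate early genes 3 rose, Jun (2.36), Fos (2.24) and Dusp1, which is on both lists, and 2 fell, Nr4a1 (-0.90) and Egr1 (-1.03). Fos had 2.60, 0.996 and 1.47 RPKM with vehicle. It passed the filter on low values through its tofacitinib group only, which favours a rise. Of 6 p53-responsive genes 2 rose, Bbc3 (0.70) and Trp53inp1 (0.37). The part of these inputs in the changes of the 10 genes was not tested. With the run as a block in ILC1, 1 of 6 glucocorticoid-responsive genes (Tsc22d3), 3 of 9 immediate early genes (Jun, Fos and Fosb) and 1 of 5 p53-responsive genes (Bbc3) were called higher and none lower. Leaving out tofacitinib replicate 1 kept 4 of the 21 list genes named as called in NK cells (Il7r, Cited4, Jun and Tsc22d3), and leaving out tofacitinib replicate 2 kept 9. The count was 11 when vehicle replicate 1 was dropped, 21 when replicate 2 was and 19 when replicate 3 was.

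**Figure D4:**
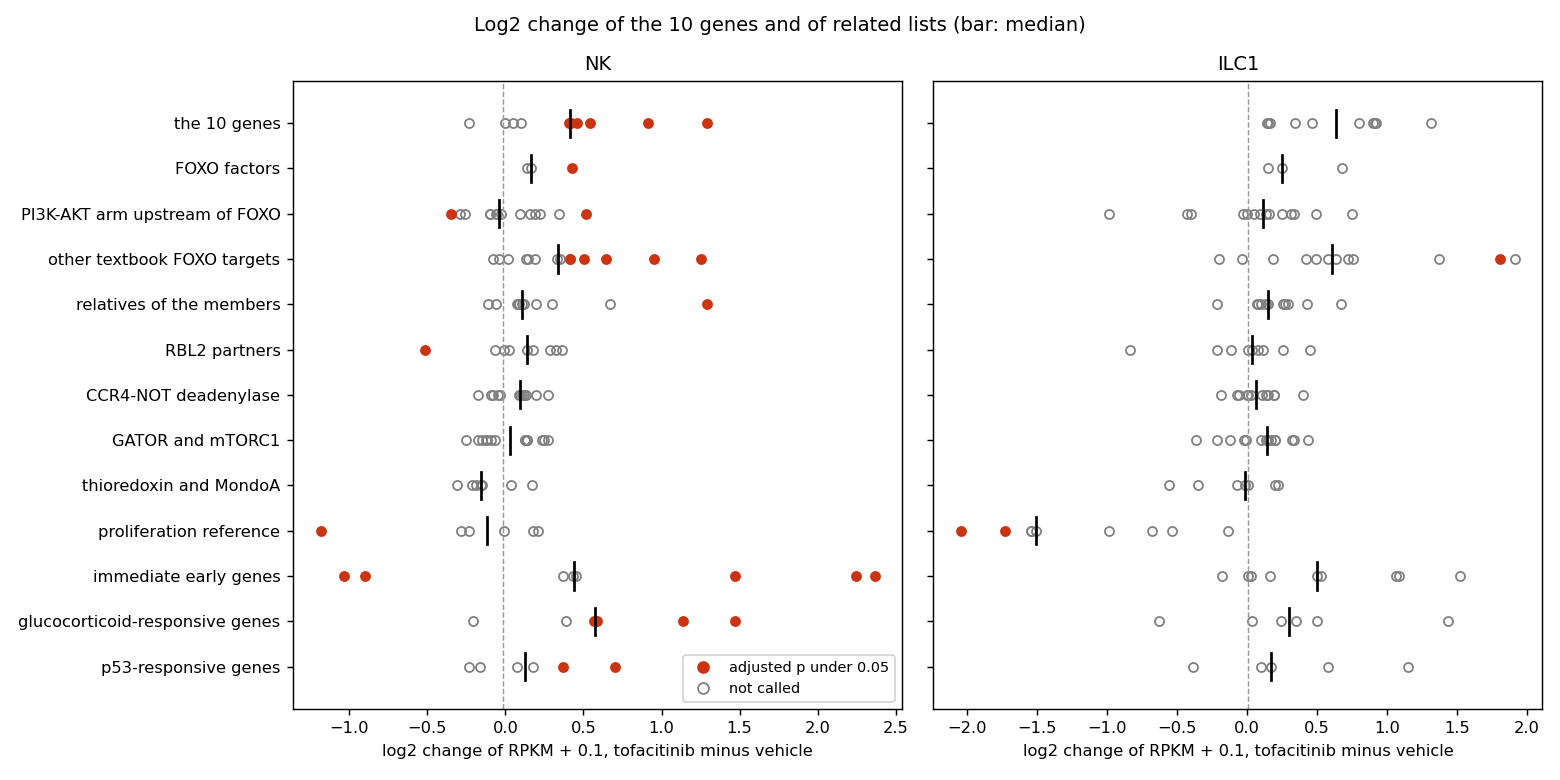
Log2 change of RPKM + 0.1 between tofacitinib and vehicle (x axis) for each tested gene of the 10 described and of 12 related lists, in NK cells (left) and ILC1 (right). Filled red points had an adjusted p under 0.05, the black bar is the median of the list and the dashed line the median of all genes. The 10 genes have medians of 0.41 and 0.63, and the proliferation genes in ILC1 have a median of -1.51.

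Each gene was centred on its vehicle mean in each cell type and correlated with the mean of the 10 genes across the 10 libraries. Over all 8981 genes tested in both cell types the median Pearson r was 0.672 and the 95th percentile 0.928. Shifts common to a whole library were not removed. Among the 10 genes, each a part of that mean, r ran from 0.719 (Btg1) to 0.974 (Cited2). Rbl2 (0.848), Sesn3 (0.88) and Sesn1 (0.923) also lay below the 95th percentile. The 5 genes most like the mean, the 10 themselves left aside, were Bmpr2 (r = 0.992), Rttn (0.99), Paip2b (0.989), Gpr160 (0.988) and Esyt2 (0.988). Of these Paip2b, an inhibitor of the poly(A)-binding protein, was called in NK cells (17.6 to 23.5 RPKM, 0.41, adjusted p = 0.0221), and the other 4 had NK log2 changes of 0.23 to 0.30 that were not called. These values describe the 10 libraries, of which 4 ILC1 libraries share runs.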

How the data were processed

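RNA of 10 libraries (3 vehicle and 2 tofacitinib pools each of splenic NK cells and liver ILC1) was analysed from RPKM values as deposited by the authors. Single-end reads of 50 bases had been aligned by TopHat2 2.1.1 to mm10, a C57BL/6 genome, and turned into RPKM by the authors in Partek. The submitters' processing notes also list CASAVA 1.8.2. Because RPKM holds no counts, the depth behind a single gene is unknown, and the spread between libraries stood in for it. The authors' further tables hold their group means, ratios, p-values and q-values from an analysis of variance and were not used.

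Within each table, limma 3.58.1 (under R 4.3.3) fitted log2(RPKM + 0.1) on treatment, with a trended variance prior and two-sided tests, over genes whose group mean was above 1 in at least 1 group, without names starting with Mir or Snor (9472 genes in NK cells, 9366 in ILC1). All 10 members passed this filter in both. A gene under the cut in 1 group was tested through the other group only, which favours a change toward that group. The variance prior had 5.81 degrees of freedom in NK cells and infinitely many in ILC1. P-values were adjusted over every gene tested in a table (Benjamini-Hochberg, threshold 0.05), and fold changes on this scale understate those of low genes. The difference of response was an interaction in a joint fit of all 10 libraries. The fits were tested on simulated data.

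The members and the 12 gene lists were chosen with earlier results of these data known, and 2 genes of these or of the marker lists are not reported here. Genes named are the 10 members, from each list genes called in either cell type or among the 4 with the smallest p in NK cells, and the 5 genes with the most similar profile. Figures were drawn with matplotlib 3.10.9. Replicate numbers of the titles were not taken to pair the libraries, since deviations of same-numbered libraries from their group means correlated at 0.02 and 0.14 in NK cells and 0.16 and -0.63 in ILC1. ILC1 libraries of the same sequencing run, as given in the authors' sample sheets, correlated at 0.63 and 0.78. With 2 tofacitinib libraries their deviations mirror each other, so 0.63 and -0.63 for ILC1 vehicle replicate 2 are the same value up to sign. NK libraries of the same sheet letter correlated at -0.14 and -0.16, which does not bear out the letter block. Alternatives were the offset, the filter, the scaling, the variance model, leaving out each library, and blocks for replicate number and for run or sheet letter. A run block on libraries scaled to the same median was added after the data had been seen. Coordinates are from GENCODE vM21 and promoter windows from RefSeq.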

Additional observations from a re-analysis of the deposited data

How the results depend on the processing

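In NK cells the members called higher were 6, and 6 also with either other offset, either other scaling, the stricter filter or no trend. They were 0 with no filter on low values and 0 with each gene's own variance, 4 with the sheet letter as a block, and 1 to 6 when 1 library was left out. All genes called in NK cells went from 456 to 1 with no filter, 0 with each gene's own variance and 37 to 790 when 1 library was left out. In ILC1 the members called higher went from 0 to 1 on libraries scaled to the same median, 2 with quantile normalization, 5 with the run as a block, and 5 with the run as a block on libraries scaled to the same median, an alternative chosen after seeing the data. All genes called in ILC1 went from 44 to 0 with no filter, 11 with the stricter filter, 245 on scaled libraries, 243 with quantile normalization, 0 with each gene's own variance, 405 with the run block, 954 with the run block on scaled libraries, and 6 to 120 when 1 library was left out. Genes whose responses differed between ILC1 and NK cells went from 13 to 0 with no filter, 5 with the stricter filter, 2 on scaled libraries, 7 with quantile normalization, 0 with each gene's own variance, 47 with run and letter as a block, and 3 to 18 when 1 library was left out, with 0 members called throughout.

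With replicate numbers as a block, a pairing the correlations of deviations do not bear out, 6 members were called higher and 1 lower (Btg1, -0.30, adjusted p = 0.0284) in NK cells, where all genes called rose to 1814. That block gave 2 genes in ILC1 and 5 for the difference of response, with 0 members in either.

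No called change of a gene turned direction. The NK change of Rbl2 became 0.0103 on scaled libraries, 0.0689 with quantile normalization and 0.026 with the letter block, and ranged from -0.0173 to 0.026 when 1 library was left out. Leaving out 1 library, the ILC1 changes ranged from -0.33 to 0.62 for Btg1, -0.12 to 0.41 for Rbl2, -0.0482 to 0.36 for Sesn3 and -0.19 to 1.13 for Tob1, each turning negative without tofacitinib replicate 2, and those of Btg1, Rbl2 and Sesn3 also without vehicle replicate 2. The ILC1 change minus the NK change ranged from -0.49 to 0.46 for Txnip (0.29 with the replicate block, 0.11 with the run and letter block), -0.68 to 0.73 for Pik3ip1 (-0.0412 with an offset of 1), -0.10 to 0.86 for Btg1, -0.30 to 1.05 for Btg2, -0.022 to 0.95 for Ccng2, -0.12 to 0.41 for Rbl2, -0.00135 to 0.49 for Sesn1, -0.10 to 0.31 for Sesn3 and -0.73 to 0.59 for Tob1 (0.13 with the replicate block). The ratio of Sesn3 between ILC1 and NK cells with tofacitinib went from 1.62 to 1.93 when RPKM was divided by the library median. The cause of these shifts was not tested. RPKM without counts sets no limit of detection for a gene, and 2 treated pools a cell type limit every test here.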
